A study of Mus musculus with 20 samples.

Results

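Sox9, Vgf and Ptprn are 3 of the 6025 genes in the table of kidney transcript levels, and they were taken by symbol and followed mouse by mouse rather than as group means. All 3 passed the minimum mean of 1 CPM (counts scaled to a common library size) used for testing, as did 5672 genes in all. The choice was made with results of these data known, among them the rise of Sox9 and Vgf over the controls, and the members count as chosen by their measured levels against the controls, so those levels are given here as a description without a test. SOX9 is a transcription factor of the SOX family, whose members bind DNA through an HMG box. It is active in many progenitor cells, is low in the tubule of the adult kidney and is known to rise in tubular epithelium after injury. VGF is the precursor of secreted peptides and is stored in dense-core vesicles of neurons and endocrine cells. PTPRN, also called IA-2, is a transmembrane protein of the same vesicles that resembles a tyrosine phosphatase and lacks its activity.

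The 20 libraries came from the renal cortex of wild-type C57BL/6 mice (C57BL/6J in the protocol) that were 8 weeks old, and each library was 1 mouse. The groups were control (labelled mock, and described for the series as mock and vehicle, n = 8), ischemia-reperfusion injury (IRI, 24 h, n = 4), rhabdomyolysis (24 h, n = 4) and cisplatin (72 h, n = 4). IRI interrupts and restores renal blood flow, rhabdomyolysis releases muscle contents into the circulation, and cisplatin is a drug that damages DNA and injures tubular cells. SOX9 and transcription of the Vgf gene in tubular cells are the subject of the series title, and no group in which Sox9 was altered is analysed here. How each injury was made and the dose of cisplatin are not given in the sources used here.

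Reads in the table ranged from 3.48 M to 5.40 M per library. Library identifiers fall into a pair of number ranges, one with the IRI mice and controls 1 to 4, the other with the mice of rhabdomyolysis and cisplatin and with controls 5 to 8. In direct comparisons of IRI mice with mice of the other injuries, injury and range cannot be told apart, so comparisons with controls use those of the same range. The cortex label fits the libraries in one respect that can be read from the table: of 20 proximal tubule genes listed, 19 were in it, with a summed level of 42986 to 69026 CPM in the controls. Markers of the adrenal gland, which borders the kidney and makes dense-core vesicles, were limited to Ddc and Slc18a1 among 12 listed, and their sum was lower in the injured mice (70.5 to 202 CPM) than in the controls (384 to 483 CPM). Slc18a1 made most of it, with a mean of 329 CPM in controls. The sum of the proximal tubule list was lower in the injured mice too (7171 to 21580 CPM). The proximal tubule also expresses Ddc, so the sum of these 2 markers is not read as a measure of adrenal tissue. The other adrenal markers listed, such as Th, Dbh and Pnmt, are not analysed here. Of 12 neuronal markers, 3 were in the table, and their sum was 55.9 to 73.4 CPM in the rhabdomyolysis mice, above the 13.2 to 18.4 CPM of controls, 12.9 to 16.0 CPM of IRI and 14.8 to 18.3 CPM of cisplatin. The 3 did not move together: Uchl1 and Nefm were called higher in every injury and Syp lower, with means of 10.8 CPM in controls and 2.71 CPM in rhabdomyolysis. These calls are read against shares of 40.1% to 48.8% of all genes tested that were called in one direction in one injury. The part of these markers in the results was not tested.

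In GRCm38, with GENCODE annotation, Sox9 lies on chromosome 11 (112782224 to 112787760, plus strand, ENSMUSG00000000567.5) and its exons together cover 4135 bases. Vgf lies on chromosome 5 (137026392 to 137033351, plus strand, ENSMUSG00000037428.14), with 2973 exonic bases. Ptprn lies on chromosome 1 (75247027 to 75264502, minus strand, ENSMUSG00000026204.15), with 4249 exonic bases. Among the 3 genes, Ptprn alone matched a RefSeq promoter entry, listed at a start site at 75264208 (GRCm38.p6). The 250 bases before that site were searched for motifs. This start lies inside the GENCODE gene, whose outermost transcript begins at 75264502, and the longest stretch of the 250 bases outside every GENCODE exon of the gene (220 bases, chr1:75264214-75264433, minus strand) is shown because Creb1, which encodes a factor that binds cAMP response elements, is among the genes named with Sox9 further on, though not among those named with Ptprn. Capitals mark the core of that element, TGACG, read on either strand.
Ptprn promoter: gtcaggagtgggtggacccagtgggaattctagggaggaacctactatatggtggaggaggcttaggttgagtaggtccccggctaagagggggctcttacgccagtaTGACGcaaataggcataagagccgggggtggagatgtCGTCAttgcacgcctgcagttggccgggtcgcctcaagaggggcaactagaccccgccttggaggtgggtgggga
Counted from that RefSeq start site, with -1 as the base before it, the core begins at position -117 on the strand printed and at position -80 as CGTCA, which is TGACG on the opposite strand. The letters ACAAAG and ACAATG (cores bound by SOX proteins), TGACGTCA (the full element) and TGANTCA (the AP-1 element) had 0 matches in the 250 bases on either strand. The 250 bases before a second RefSeq start site, which lie within the gene, had 0 matches to any of the 5. Across 32851 promoter windows of 250 bases, TGACG was present in 17.8%, ACAAAG in 16.5%, ACAATG in 10.7%, TGANTCA in 6.75% and TGACGTCA in 1.55%. Each TGACGTCA also counts as a TGACG.

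All 3 transcripts were at or near 0 in every control and had at least 32 reads in every injured mouse. Sox9 in the 8 controls had a lowest value of 0.422, a median of 0.599 and a highest value of 1.202 CPM, from 3 to 9 reads. It was 12.5, 26.4, 15.5 and 20.6 CPM in IRI mice 1 to 4. In rhabdomyolysis mice 1 to 4 it was 45.7, 57.6, 45.8 and 38.6 CPM, and in cisplatin mice 1 to 4 it was 21.7, 29.2, 29.3 and 18.8 CPM. Every rhabdomyolysis mouse was above every cisplatin mouse, while the cisplatin and IRI mice overlapped.

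Vgf had 0 reads in 7 of the 8 controls and 1 read (0.141 CPM) in control 2. The IRI mice had 4.85, 14.9, 10.2 and 8.58 CPM (37, 112, 89 and 75 reads). Rhabdomyolysis mice had 43.7, 25.9, 42.2 and 19.1 CPM, and cisplatin mice had 4.09, 15.7, 16.8 and 4.84 CPM, in which mice 1 and 4 had 35 and 50 reads and mice 2 and 3 had 156 and 150. The lowest rhabdomyolysis mouse was above the highest cisplatin mouse, and cisplatin and IRI overlapped.

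Ptprn had 0 to 3 reads per control, with a median of 0.211 CPM. It was 8.00, 4.26, 7.12 and 5.26 CPM in the IRI mice, 22.4, 31.6, 33.4 and 9.42 CPM in the rhabdomyolysis mice and 15.4, 18.2, 15.4 and 14.7 CPM in the cisplatin mice. Here the order of neighbours differed from that of the other two genes: every cisplatin mouse was above every IRI mouse, and rhabdomyolysis overlapped cisplatin through mouse 4. In a bulk sample, fewer cells that carry a transcript and less of it per cell cannot be told apart.

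**Figure D1:**
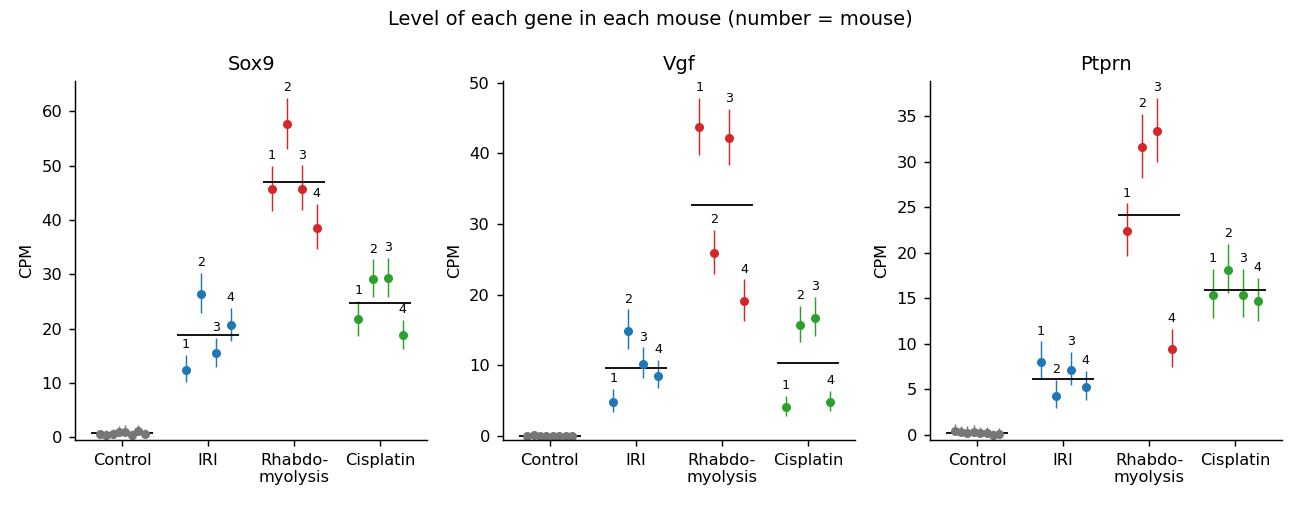
Level in CPM (linear axis) of Sox9, Vgf and Ptprn in each of the 20 mice by group. Points are mice, numbered within each injury, vertical bars are exact Poisson 95% intervals of the reads, and horizontal lines are group means. The controls lie near 0, Sox9 is highest in rhabdomyolysis mouse 2, Vgf in rhabdomyolysis mouse 1 and Ptprn in rhabdomyolysis mouse 3, and rhabdomyolysis mouse 4 is the lowest of its group in all 3 panels.

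From the pooled reads of each injury and of the 4 controls in its identifier range, the rise of Sox9 was 28.7-fold in IRI, 58.0-fold after rhabdomyolysis and 30.3-fold after cisplatin. Ptprn was 20.0-fold higher in IRI (95% counting interval 10.3 to 44.5, 201 reads against 9), 223-fold in rhabdomyolysis (76.1 to 1084, 992 reads against 3) and 144-fold in cisplatin (48.9 to 699, 602 reads against 3). Vgf was 281-fold higher in IRI with a counting interval of 50.04 to 11128, since its controls held 1 read. Against the value of 3 reads per control library, the rhabdomyolysis mice were at least 73.1-fold higher in Vgf, and for the cisplatin mice the bound was at least 23.1-fold. The ratio in IRI rests on 1 control read and the other values on a floor, so they give no order of the injuries in the rise of Vgf. By level, mean Vgf was 32.7 CPM in rhabdomyolysis, beside 10.4 CPM in cisplatin and 9.64 CPM in IRI. These intervals cover counting error only, because reads were pooled over the mice of each group, and they leave out the spread between mice. Reads were also not tagged by molecule. By limma with Benjamini-Hochberg adjustment, 40.6% of the genes tested were called higher in IRI, 48.8% in rhabdomyolysis and 47.8% in cisplatin. All 3 genes were among them each time, and nothing is read from that count because the choice of genes used those contrasts.

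Per kilobase of exon, mean levels of Sox9 and Vgf were close in rhabdomyolysis, at 11.3 and 11.0 CPM per kb, and Ptprn was at 5.70 CPM per kb. In IRI the order was Sox9 (4.53 CPM per kb), Vgf (3.24) and Ptprn (1.45). Cisplatin gave 5.98 CPM per kb for Sox9, 3.75 for Ptprn and 3.48 for Vgf, whose mice ranged from 1.37 to 5.64 and so spanned the Ptprn mean.

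Between rhabdomyolysis and cisplatin, which share an identifier range, limma called 21.4% of the genes tested higher in rhabdomyolysis. Ptprn was not called, with a log2 difference of 0.44 (SE 0.26, n = 4 against 4, limma adjusted p 0.156). Leaving out rhabdomyolysis mouse 4 gave 0.82 (limma adjusted p 7.40e-04), and edgeR on the recovered reads gave 0.61 (edgeR adjusted p 0.0496). The corresponding log2 differences were 0.91 for Sox9 (SE 0.21) and 1.72 for Vgf (SE 0.35), both past the limma threshold (adjusted p 8.37e-04 and 2.83e-04). The genes were chosen with results of these data known, so these values describe the levels and nothing is read from their p-values.

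The spread between mice of one injury is given beside the spread that counting error alone would give. The coefficient of variation (SD over mean) of Sox9 was 32.6% for IRI mice, 16.8% for rhabdomyolysis and 21.5% for cisplatin mice, and counting error alone gives 8.11%, 4.60% and 6.55%. Vgf was the most variable of the 3 genes in IRI and cisplatin, with 43.3% and 65.9%, against 11.3% and 10.1% from counting, and it had 37.1% in rhabdomyolysis. Its highest cisplatin mouse had 4.10 times the level of its lowest. Ptprn was the most variable in rhabdomyolysis, at 45.3%, where its highest mouse had 3.54 times the level of mouse 4. In cisplatin Ptprn varied by 9.60%, close to the 8.15% that counting gives, and the Poisson intervals of its 4 mice overlapped. Differences between the 3 injuries held 77.7% of the variance of Sox9 over injured mice, 61.6% for Vgf and 73.1% for Ptprn, beside a median of 74.8% over the 5672 genes tested.

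The order of the mice within an injury was not the same for the 3 genes. Among IRI mice, mouse 2 was highest and mouse 1 lowest in both Sox9 and Vgf, and Ptprn had the reverse, with mouse 1 highest (8.00 CPM, Poisson interval 6.12 to 10.3) and mouse 2 lowest (4.26 CPM, 2.92 to 6.02). Among rhabdomyolysis mice, mouse 4 was lowest in all 3 genes. Mouse 2 of that injury had the highest Sox9 (57.6 CPM) and ranked below mice 1 and 3 in Vgf (25.9 CPM), while mice 1 and 3 shared nearly the same Sox9 (45.7 and 45.8 CPM) and had the highest Vgf. In cisplatin, mice 2 and 3 were above mice 1 and 4 in both Sox9 and Vgf, by a wider margin in Vgf.

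To ask how the genes vary together beyond group means, log2(CPM + 1) was centred on the mean of each injury, and the deviations of the 12 injured mice were correlated, with a two-sided exact permutation of mice within injuries over 13824 arrangements. In all 3 relations, 1 per pair of genes, were computed. Vgf and Sox9 had a Pearson r of 0.716 (exact p = 0.0238, or 0.0714 with Benjamini-Hochberg adjustment over the 3), so that it did not pass 0.05 once adjusted, and their Spearman rho on ranks within injuries was 0.600 (exact p = 0.0893). Both genes were on the same side of their injury mean in 7 of 12 mice. Without the mice farthest from the median Sox9 deviation, IRI mice 1 and 2, r was 0.621 (exact p = 0.158, n = 10), so the unadjusted p under 0.05 rests on those mice. It was also lost without IRI mouse 1 alone (r 0.644, exact p = 0.0770), IRI mouse 2 alone (0.672, exact p = 0.0683) or rhabdomyolysis mouse 4 alone (0.684, exact p = 0.0561), and kept without each of the other 9. Within the identifier range of rhabdomyolysis and cisplatin r was 0.708 (exact p = 0.142, n = 8). The injured mice of the other range are the 4 of IRI, under the 6 needed here for a correlation. Over these 4 the slope of Vgf on Sox9 was 1.15, also positive, with no test of its own.

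No relation between Ptprn and Sox9 was detected by this measure, with r 0.0310 (exact p = 0.912) and rho 0.200 (exact p = 0.630), and both genes were on the same side of the mean in 5 of 12 mice. Nor was a relation with Vgf detected (r 0.185, exact p = 0.559, rho 0.0667, exact p = 0.924, same side in 8 of 12). Removing the 2 mice farthest from the median left r at 0.437 for Ptprn and Sox9 (without IRI mice 1 and 2, exact p = 0.225) and 0.381 for Ptprn and Vgf (without IRI mouse 1 and cisplatin mouse 1, exact p = 0.294). The sign of both relations turned with single mice. Without rhabdomyolysis mouse 4, r was -0.457 for Ptprn and Sox9 and -0.250 for Ptprn and Vgf. In the 8 rhabdomyolysis and cisplatin mice, r with Ptprn was 0.559 for Sox9 (exact p = 0.109) and 0.4196 for Vgf (exact p = 0.155), and in the 8 IRI and cisplatin mice it was -0.643 (exact p = 0.207) and -0.226 (exact p = 0.559).

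**Figure D2:**
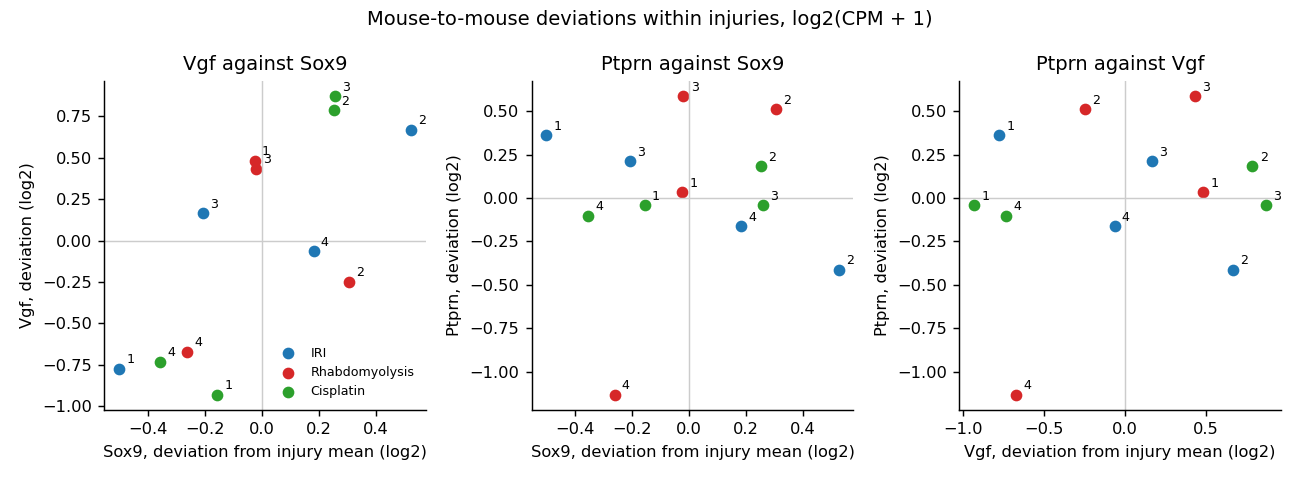
Deviation of each injured mouse from the mean of its injury in log2(CPM + 1), for Vgf against Sox9, Ptprn against Sox9 and Ptprn against Vgf. Points are the 12 mice, colored by injury and numbered within it. Vgf against Sox9 runs from lower left to upper right with rhabdomyolysis mouse 2 below the others of its Sox9 value, and in the middle panel the IRI mice run downward while rhabdomyolysis mouse 4 lies far below.

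Set against the whole table, Vgf stood high among the genes that follow Sox9 but not at the top. The share of the 5671 other genes tested with an r to Sox9 at least as high as that of Vgf was 1.66%, and the share with an r to Vgf at least as high as that of Sox9 was 3.86%. For Ptprn these shares were 45.5% with Sox9 and 37.3% with Vgf, near the middle of the table. The 5th to 95th percentile of r ran from -0.61 to 0.58 with Sox9, from -0.73 to 0.69 with Vgf and from -0.65 to 0.66 with Ptprn.

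**Figure D3:**
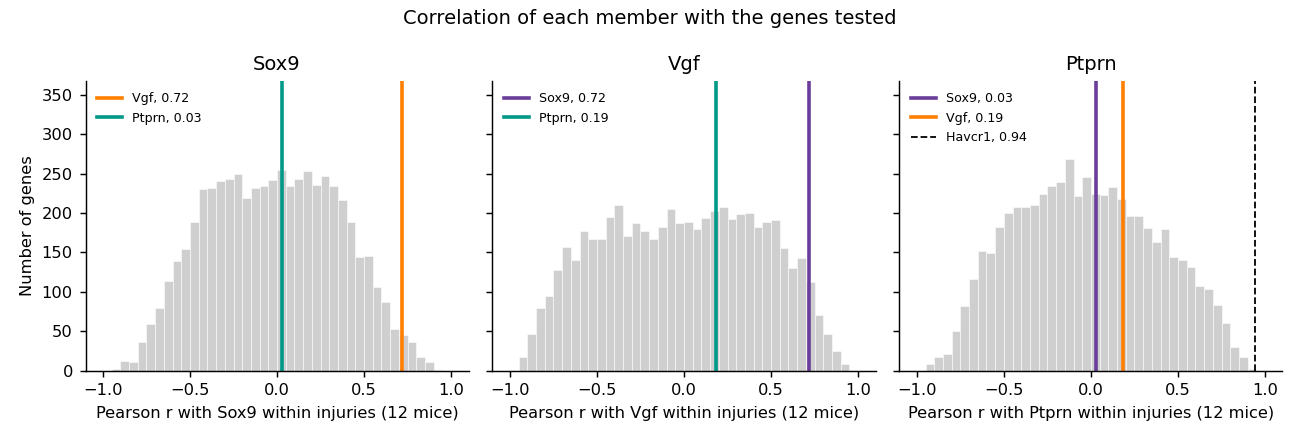
Number of genes by Pearson r with Sox9, Vgf and Ptprn within injuries (12 mice), in grey, over the genes tested. Colored lines mark the other members and the dashed line marks Havcr1. Vgf at 0.72 lies in the upper tail of Sox9, and Ptprn at 0.03 lies in its middle.

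The same question was asked of all genes at once with limma, as the slope of each gene on a member within injuries, in log2 units per log2 unit. The slope of Vgf on Sox9 was 1.53 (SE 0.43, unadjusted p 0.00327) and was not called with adjustment over 5671 genes (limma adjusted p 0.513). The slope of Ptprn on Sox9 was 0.05 (SE 0.43, limma adjusted p 0.981) and on Vgf 0.13 (SE 0.19, limma adjusted p 0.752). No gene was called for a slope on Sox9 (0% of genes tested by limma, 452 at an unadjusted p under 0.05, and 0 by edgeR), and none for a slope on Ptprn (0%, 712 at an unadjusted p under 0.05). On Vgf 91 genes were called, or 1.6% of those tested, 23 with a positive slope (0.406%) and 68 with a negative slope (1.2%). Neither Sox9 (slope 0.33, SE 0.10, limma adjusted p 0.118) nor Ptprn was among them. That count rested on few mice: it was 0 to 2 without any 1 of the 4 cisplatin mice, 5 without IRI mouse 2, 409 without IRI mouse 1, 27 to 53 without any 1 rhabdomyolysis mouse, and 1 with limma run without a mean-variance trend.

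By injury, the slope of Vgf on Sox9 over 4 mice was 1.15 for IRI, 0.49 for rhabdomyolysis and 2.95 for cisplatin, and that of Ptprn on Sox9 was -0.78, 2.71 and 0.28. A moderated F test of the difference in slope between injuries called no gene (0% of genes tested by limma, 580 at an unadjusted p under 0.05, and 0 by edgeR). It gave F 2.68 for Vgf (limma adjusted p 0.529) and F 9.11 for Ptprn (unadjusted p 0.00432, limma adjusted p 0.385). Without rhabdomyolysis mouse 2, Ptprn had F 23.0 (limma adjusted p 0.0350) and 56 genes were called.

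Ratios of reads between the genes of one library do not depend on how it was scaled. Vgf to Sox9 was 0.389, 0.566, 0.659 and 0.417 in IRI mice 1 to 4, 0.957, 0.450, 0.921 and 0.494 in rhabdomyolysis, and 0.188, 0.540, 0.573 and 0.258 in cisplatin. The rhabdomyolysis and cisplatin mice each split into a pair with a high and a pair with a low ratio. Ptprn to Sox9 ranged from 0.162 in IRI mouse 2 to 0.642 in IRI mouse 1, from 0.244 in rhabdomyolysis mouse 4 to 0.728 in mouse 3, and over the narrower span of 0.527 to 0.784 in cisplatin. The ratio of Vgf to Ptprn had the widest span of the 3 in IRI and cisplatin and not in rhabdomyolysis. It ran from 0.607 in mouse 1 to 3.50 in mouse 2 of IRI, from 0.819 to 2.02 in rhabdomyolysis and from 0.265 to 1.09 in cisplatin.

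Rhabdomyolysis and cisplatin were compared in these 3 ratios by two-sided exact permutation of 4 against 4 mice, whose smallest possible p is 0.0286, and no ratio passed. The log2 difference, rhabdomyolysis minus cisplatin, was 0.93 for Vgf to Sox9 (exact p = 0.171), -0.48 for Ptprn to Sox9 (exact p = 0.229) and 1.41 for Vgf to Ptprn (exact p = 0.0857). Whether Vgf has a steeper slope on Sox9 than Ptprn has was examined through the log2 difference between Vgf and Ptprn, a comparison added after the values were seen. Its r with Sox9 within injuries was 0.627 (exact p = 0.0683, n = 12), rho was 0.267 (exact p = 0.506), and r was 0.315 without IRI mice 1 and 2 (exact p = 0.438). A difference between the slopes of Vgf and of Ptprn on Sox9 was therefore not shown, and which of them follows Sox9 more closely was not tested.

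**Figure D4:**
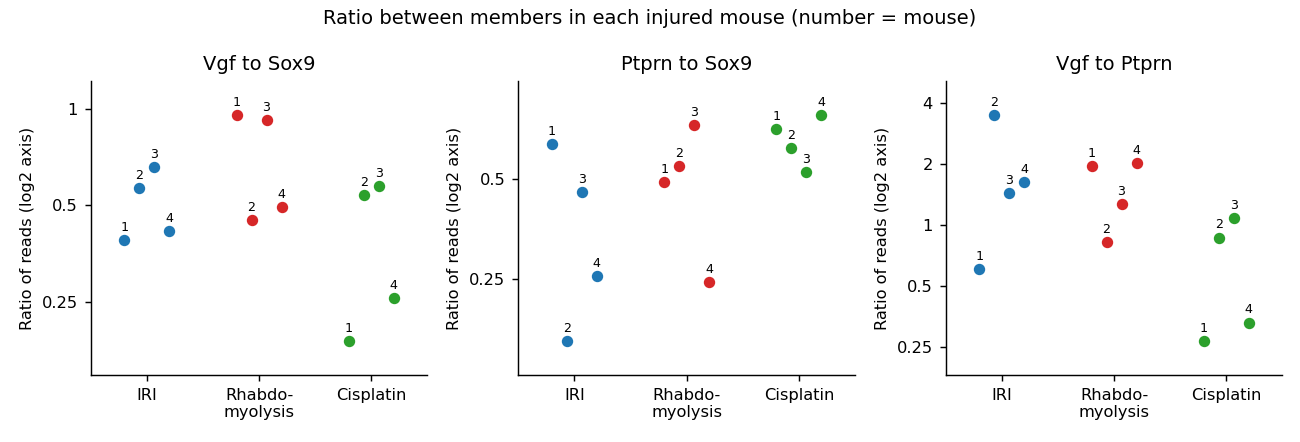
Ratio of reads between members in each of the 12 injured mice, on a log2 axis, by injury. Points are mice, numbered within each injury. Among the IRI mice, mice 1 and 2 lie at opposite ends in the Ptprn to Sox9 and Vgf to Ptprn panels, and cisplatin mice 1 and 4 lie below cisplatin mice 2 and 3 in Vgf to Sox9.

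The nearest neighbours of each gene in the table were chosen for their r and so are described without support from it. Closest to Sox9 were Nfya (r 0.936), which encodes a subunit of the CCAAT-binding factor NF-Y, Cdyl (0.882), a chromatin protein, Fst (0.877), the activin-binding protein follistatin, Gcnt4 (0.876), a glycosyltransferase, and Creb1 (0.873). They did not run with Sox9 alone, since their r with Vgf ran from 0.546 for Creb1 to 0.880 for Cdyl. Nfya was 22.7, 31.4, 23.3 and 27.6 CPM in IRI mice 1 to 4, 35.7, 37.8, 35.7 and 33.7 CPM in rhabdomyolysis and 37.2, 42.8, 39.8 and 37.1 CPM in cisplatin. Mouse 2 was thus highest in each injury, as it was for Sox9 in IRI and rhabdomyolysis. Igfbp4, which binds insulin-like growth factors, had the lowest r with Sox9 (-0.935), followed by Tmbim4 (-0.916) and Dpp7 (-0.885). None of these 8 slopes on Sox9 was called (limma adjusted p 0.265 to 0.680).

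Nearest to Vgf were Bcam (r 0.947), an adhesion molecule that binds laminin, Glipr2 (0.945), Nfkb1 (0.941), a subunit of NF-kappaB, Ppm1j (0.932), a phosphatase, and Nfkbie (0.924), an inhibitor of NF-kappaB. Their r with Sox9 ran from 0.527 for Nfkb1 to 0.773 for Ppm1j. All but Nfkbie (limma adjusted p 0.0726) were called for a positive slope on Vgf, with limma adjusted p 0.0356 for Bcam, 0.00672 for Glipr2, 0.0318 for Nfkb1 and 0.0308 for Ppm1j. Glipr2 was 7.61, 16.2, 9.19 and 7.89 CPM in IRI mice 1 to 4, 28.9, 16.3, 24.5 and 11.0 CPM in rhabdomyolysis and 12.8, 34.4, 29.3 and 13.4 CPM in cisplatin. Like Vgf, it was high in rhabdomyolysis mice 1 and 3 and in cisplatin mice 2 and 3. At the other end were the fucosidase gene Fuca2 (r -0.943, limma adjusted p 0.0359), the galactosidase-like Glb1l (-0.935, limma adjusted p 0.0297) and the nucleoside transporter gene Slc29a3 (-0.932, limma adjusted p 0.0259), all called for a negative slope. The calls on Vgf in both directions belong to the set of 91 that falls to 0 without cisplatin mouse 2. Without a mean-variance trend that set falls to 1.

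Nearest to Ptprn was Havcr1 (r 0.944), which encodes the tubular injury marker KIM-1. Havcr1 was 4062, 3094, 3862 and 2851 CPM in IRI mice 1 to 4, 1611, 2300, 2275 and 1156 CPM in rhabdomyolysis and 1724, 1659, 1546 and 1512 CPM in cisplatin. As for Ptprn, mice 1 and 3 were above mice 2 and 4 in IRI, mice 2 and 3 were highest and mouse 4 lowest in rhabdomyolysis, and the cisplatin mice were close together. Across injuries the order differed, since Havcr1 was highest in IRI, where Ptprn was lowest. The r of Havcr1 with Sox9 was 0.00055 and with Vgf 0.061. Its slope on Ptprn was not called (limma adjusted p 0.0934), nor were those of the next 4, Slc33a1 (r 0.931), an acetyl-CoA transporter gene, Atic (0.887), of purine synthesis, Adam8 (0.881), a metalloprotease, and Pin4 (0.881), a prolyl isomerase. Wnk4, a kinase that regulates salt transport in the distal tubule, had the lowest r (-0.940), then Lama1 (-0.932), a laminin chain, and Zfp523 (-0.919). Rhabdomyolysis mouse 4, whose Ptprn deviation was -1.13, was lowest of its injury in each of the genes with high r. It was highest in each of those with low r. Adam8 was 8.86 CPM in that mouse and 20.0 to 22.9 CPM in the others of its injury, and Wnk4 was 106 against 64.3 to 78.3 CPM. How far these r rest on that mouse was not tested.

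Genes were also ranked by the smallest of their 3 values of r, to find those that ran with all 3 members. The leading ones were H2-Q7 (smallest r 0.621), an MHC class Ib gene whose reads may be shared with close copies, Fgb (0.602), the fibrinogen beta chain, Aebp1 (0.591), Slc34a2 (0.588), a phosphate transporter, Zfp36l1 (0.587), an RNA-binding protein that destabilizes mRNA, Gbp7 (0.581), Arf6 (0.571), Desi2 (0.564), Ttc26 (0.552) and Gpr123 (0.547).

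Gene lists were described by how many members ran with or against each gene over the 12 mice, beside medians over all genes tested of -0.017 for Sox9, -0.0068 for Vgf and -0.040 for Ptprn. Proximal tubule genes ran against Vgf in 19 of 19 genes tested (median r -0.717) and against Sox9 in 19 of 19 (median -0.544). With Ptprn, 13 were negative and 6 positive (median -0.116). The values with Sox9 ran from -0.730 for Slc7a13, an amino acid transporter gene, to -0.181 for Slc4a4, the basolateral bicarbonate cotransporter, and 0 genes of the list were called for a slope on Sox9 or Ptprn. Of the most abundant, Kap had r -0.464 and Acsm2 r -0.343 with Sox9. On Vgf 4 of 19 were called, all negative, beside 1.2% of all genes tested: Hnf4a (limma adjusted p 0.0318), a regulator of proximal tubule identity, Slc34a1 (0.0354), the phosphate cotransporter, Slc5a12 (0.0356), a lactate cotransporter, and Slc22a8 (0.0399), an organic anion transporter. These 4 are named because they were called, and they belong to the set of calls that shrinks to 0 to 2 genes without any 1 cisplatin mouse. Slc34a1 was 611, 212, 312 and 521 CPM in cisplatin mice 1 to 4, lowest in mice 2 and 3, in which Vgf was highest, and in IRI it was lowest in mouse 2 (742 CPM against 999 to 1132 CPM). In rhabdomyolysis it was 1301, 1089, 1048 and 1363 CPM, and mouse 1, with the highest Vgf, was above mice 2 and 3.

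Tubular injury genes, a list of 20 of which 19 were tested, had a median r of 0.475 with Vgf (17 positive), 0.345 with Ptprn (14 positive) and 0.312 with Sox9 (15 positive). The extremes with Sox9 were Cdh6, a cadherin of the developing and injured tubule, at 0.802 and Plaur, the urokinase receptor gene, at -0.302, and the abundant Spp1 and Clu had 0.662 and 0.524. Slopes on Vgf were called for Vim (vimentin, limma adjusted p 0.0356) and Clu (clusterin, 0.0460), both positive, or 2 of 19 beside 0.406% of all genes tested. These calls are of the same set that rests on the cisplatin mice. On Sox9 or Ptprn 0 of 19 were called. With Ptprn the list spread from 0.944 for Havcr1 to -0.575 for Lcn2, another marker of tubular injury, named after its value was seen.

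**Figure D5:**
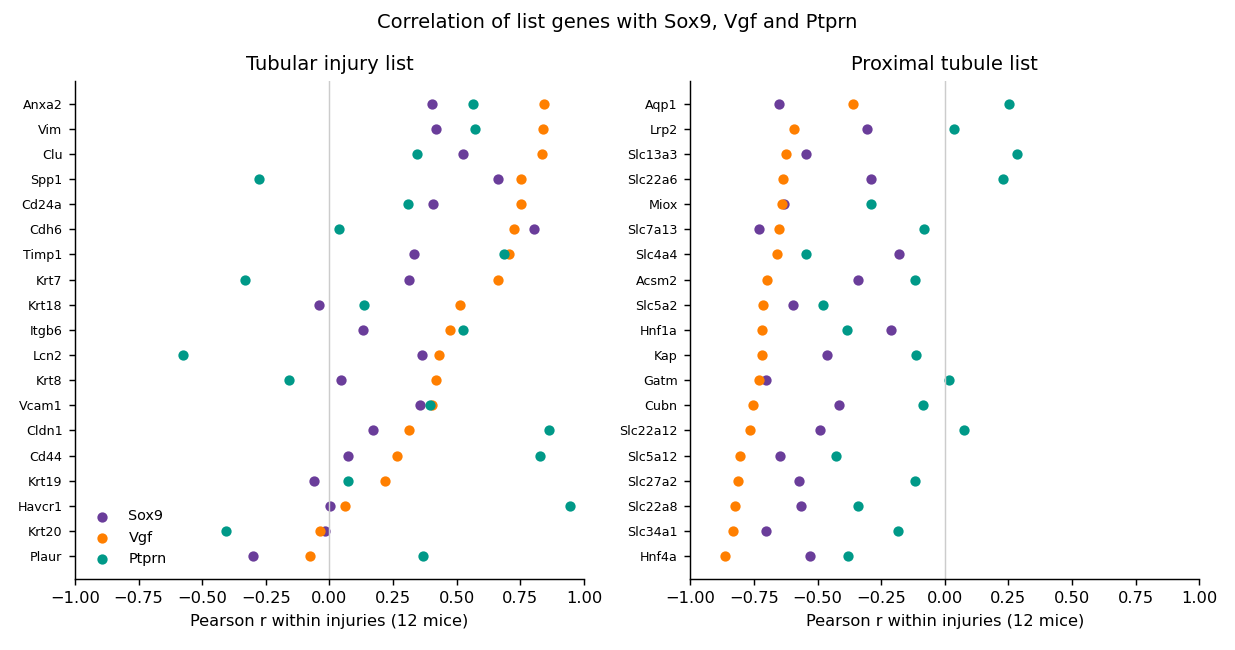
Pearson r within injuries (12 mice) of each tested gene of the tubular injury list and the proximal tubule list with Sox9, Vgf and Ptprn. Each row is a gene, ordered by its r with Vgf. All 19 proximal tubule genes lie below 0 for Sox9 and Vgf, while Ptprn lies on both sides, and Havcr1 has the highest r with Ptprn.

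VGF and PTPRN are both parts of dense-core vesicles, so a list of 23 genes of granule cargo, processing and release was examined, of which 7 were in the table and 6 tested. Its median r was -0.103 with Sox9, -0.067 with Vgf and -0.230 with Ptprn, and 0 of 6 were called for a slope on any of them. Against controls, 2 of 6 were called higher and 3 lower in rhabdomyolysis, 2 higher and 2 lower in cisplatin, and 3 higher and 3 lower in IRI. Over all genes tested, 48.8% were called higher and 46.5% lower in rhabdomyolysis, 47.8% and 44% with cisplatin, and 40.6% and 40.1% with IRI. Cpe, the carboxypeptidase that trims prohormones, had a mean of 46.7 CPM in controls and of 174, 58.3 and 232 CPM after IRI, rhabdomyolysis and cisplatin, so that among the injuries it was lowest in rhabdomyolysis, where Vgf and Ptprn were highest. Scg5, a chaperone of prohormone processing named after its values were seen, was highest in rhabdomyolysis, with a mean of 10.4 CPM in controls and of 27.98, 55.1 and 14.2 CPM after IRI, rhabdomyolysis and cisplatin. Within injuries its r was negative, at -0.286 with Vgf and -0.570 with Ptprn, and it was highest in rhabdomyolysis mouse 4 (83.9 CPM), the lowest of that injury in Sox9, Vgf and Ptprn. Rab3a, a small GTPase of vesicle release, fell from a mean of 11.96 CPM in controls to 6.13, 2.86 and 5.23 CPM in IRI, rhabdomyolysis and cisplatin (limma adjusted p 3.15e-05, 1.43e-09 and 4.03e-06). It had the highest r of the list with Sox9, 0.626, and Rab3d the lowest, -0.508.

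Among 16 genes of neurotrophin signalling, VGF peptide receptors and CREB or EGR factors, 10 were in the table and 8 tested. Median r was 0.101 with Sox9, 0.137 with Vgf and 0.028 with Ptprn, with 0 of 8 called for a slope on any of them. Creb1 had the highest r with Sox9 (0.873), and the lowest of the list was -0.326. With Ptprn, whose promoter holds the TGACG core, Creb1 had an r of 0.060 (limma adjusted p 0.968 for the slope). Egr1, the most abundant of the list in the rhabdomyolysis and cisplatin mice, had an r of 0.712 with Sox9 and rose in each injury, from a mean of 5.16 CPM to 21.7, 124 and 167 CPM (limma adjusted p 3.40e-07, 3.04e-13 and 1.01e-13 for IRI, rhabdomyolysis and cisplatin). Of 18 other Sox genes, Sox4 and Sox11 were in the table, with r to Sox9 of 0.087 and 0.394. With Vgf, Sox4 had an r of 0.444 and Sox11 of 0.715, beside 0.716 for Sox9, and neither slope was called (limma adjusted p 0.437 and 0.131). Sox4 was highest in cisplatin (mean 87.5 CPM, against 58.5 in rhabdomyolysis and 45.2 in IRI), unlike Sox9.

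The adrenal and neuronal markers also moved with the mice in part. Ddc, which the proximal tubule also expresses, had r -0.819 with Vgf and was called for a negative slope (limma adjusted p 0.0470), beside 1.2% of all genes tested, and Slc18a1 had r -0.457. The Ddc call is of the set on Vgf that falls to 0 genes without cisplatin mouse 2. The 3 neuronal markers had r from 0.049 to 0.587 with Vgf and 0 were called. Over the 12 mice, the share of each library's effective size that the table holds had r -0.433 with Sox9, -0.478 with Vgf and -0.599 with Ptprn, and the effective size itself had r 0.027, 0.276 and 0.539. The part of these in the results was not tested. Under 75th percentile scaling, quantile normalization and scaling to the reads of the table, r of Vgf and Sox9 ran from 0.716 to 0.745, with an unadjusted exact p under 0.05 each time.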

How the data were processed

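The authors deposited 1 table of normalized values of 6025 genes in 20 libraries, which behave as CPM, counts scaled to an effective library size. The submitters' processing notes name FastQC, Bowtie2 2.1.0, RSEM 1.2.15 and edgeR, with the builds GRCm38 and mm10, and give them no role or order. The annotation, the filter on genes and the normalization are not given in the sources used here. Per the labels' protocols, polyadenylated RNA of cortical tissue was sequenced from stranded libraries as paired reads. The table held 42.1% to 70.6% of each effective size. Whole reads were recovered as CPM divided by the smallest step of each column, and 100% of values came out whole within 0.001. For cisplatin mouse 2 the step lies near 0.1, where rounding is harder to separate from reads.

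The members and all gene lists, tests and alternatives were chosen with earlier results of these data known. Levels were analysed as log2(CPM + 1) in R 4.3.3 with limma 3.58.1 (empirical Bayes, mean-variance trend, Benjamini-Hochberg over all genes whose mean was 1 CPM or more, threshold 0.05), which left out 353 genes and, for slopes, the covariate itself. Fold changes on this scale understate low genes. Injured mice were set against the controls of the same identifier range in one model of all 20 libraries, and slopes were fitted within injuries over the 12 injured mice. edgeR 4.0.16 (quasi-likelihood) on the recovered reads was an alternative and called 85 genes for a slope on Vgf. The limma p-values set an effect against the spread between these mice, moderated over all genes tested. Exact p-values come from rearrangements of the mice. Poisson intervals at 95% cover counting error only. No pair of libraries was a duplicate: over 46 pairs within groups the smallest chi-square per degree of freedom was 6.57. Named genes are the members, up to 4 genes per list (highest and lowest r with Sox9 and most abundant), the 5 highest and 3 lowest r per member, and the 10 genes with the highest smallest r, leaving out symbols of predicted genes. List genes called for a slope, the marker genes of other tissues, Lcn2, Scg5 and Sox genes were named outside this rule, after their values were seen. A gene of the lists is not reported here. The scripts were tested on simulated data. Promoter sequence is from RefSeq, and 1 of the 3 members matched.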

Additional observations from a re-analysis of the deposited data

Results flagged for a closer look

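Vgf in the controls had 1 library apart from the rest, control 2, whose gap to the nearest library, divided by the range of the group, was 1. That value stands for a single read (0.141 CPM) against 0 reads in the other 7 controls. Over the 21 groups of values examined, this was the 1 case found, and chance alone gives about 5% of groups.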

How the results depend on the processing

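Whether replicate numbers pair mice across groups was not settled, because pairs of unlike number were not examined beside those of the same number. Over 24 same-numbered pairs the correlation of deviations ran from -0.286 to 0.335, with 6 above 0.1. The highest were 0.335 for mice 4 of IRI and rhabdomyolysis and 0.325 for mice 4 of rhabdomyolysis and cisplatin. With the replicate number as a block, r was 0.649 for Vgf and Sox9 (exact p = 0.0854), -0.236 for Ptprn and Sox9 and -0.224 for Ptprn and Vgf, the Ptprn slopes were -0.42 on Sox9 and -0.17 on Vgf, and 1 gene was called on Sox9 and 10 on Vgf. For Vgf and Sox9, the unadjusted exact p under 0.05 was lost by rank (0.600), without the 2 mice farthest from the median (0.621), without the IRI mice (0.708) and without the cisplatin mice (0.623), while without the rhabdomyolysis mice it was 0.825 (exact p = 0.0260). Leaving out single mice gave 0.644 to 0.818.

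For Ptprn and Sox9, r turned to -0.0057 with a pseudocount of 0.1, -0.012 over all 20 mice, -0.643 without the rhabdomyolysis mice and -0.023 without the cisplatin mice, and ran from -0.457 to 0.283 with single mice left out. The slope of Ptprn on Sox9 was -0.0088 with that pseudocount and -0.015 over all 20 mice, and -0.36 to 0.50 without single mice. For Ptprn and Vgf, r was -0.226 without the rhabdomyolysis mice and -0.250 to 0.338 without single mice, where the slope ran from -0.095 to 0.25. Genes called without single mice numbered 0 to 1 on Sox9 (1 without rhabdomyolysis mouse 3), 0 to 409 on Vgf and 0 to 56 for a slope difference (1 without rhabdomyolysis mouse 4). Without a mean-variance trend 1 gene was called on Vgf. The cause was not tested. Counts called between groups stayed within 1.5 times under each alternative run. Depth limits Vgf and Ptprn in controls, at 0 to 3 reads.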
